A study of Mus musculus with 6 samples.

Results

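The genes described here are 39 genes of the endothelium, the cell layer that lines blood vessels, with genes of the lung capillaries among them, out of 18193 genes that the arrays measured under a name. They were chosen by name from surface, signalling and transcription factor genes known in endothelial cells. All 39 were found, and where a gene had several probe sets, the brightest by mean log2 on the 6 arrays was used. RNA came from the left lung lobe of C57/BL6 mouse embryos at E18.5, 3 wild type and 3 with a conditional knockout (CKO) of Smad1 in the lung epithelium, and was read on 1 Affymetrix array per lobe. The design describes 3 pairs, and the arrays of a pair share a letter in their names. By its label the knockout is in the epithelium, while the genes followed here are known from another cell type of the lobe. The Cre driver, the Smad1 allele and any inducing agent were not stated in the sources used here, nor was it whether the wild type embryos carry part of that system.

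Endothelial cells hold their identity through transcription factors of the ETS family, such as Erg and Fli1, and through factors shared with blood cells, such as Tal1 and Gata2. In the lung they form a dense capillary bed around the future alveoli, which must be in place by birth for gas exchange. Its thin aerocytes are known for Car4, Ednrb and Apln, and the general capillary cells beside them for Gpihbp1 and Aplnr. The comparison asks how the RNA of these genes differed in the whole lobe between lungs labelled wild type and lungs labelled Smad1 CKO.

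Levels are log2(intensity + 1) of the deposited values, and differences are Smad1 CKO minus wild type, averaged over the 3 pairs and given with the SD between them. Smad1 itself was at 10.09 and 9.53 in wild type lungs 2 and 3, 10.004 in wild type lung 1, and 10.12, 10.62 and 9.05 in CKO lungs 1 to 3, a mean difference of 0.056, while its other 2 probe sets gave -0.28 and -0.18. The direction for Smad1 thus depends on the probe set, and its level in the whole lobe does not check the labels. The array of CKO lung 3 stood apart, with a mean of 2194 for the 18S ribosomal RNA controls against 154 to 201 on the other 5 arrays, and 4187 for the beta-actin controls against 14693 to 17861. Bright genes were low on it as a class: in the bright class, the uppermost of 3 equal classes of genes by mean level, the median difference was -0.29, -0.03 and -1.09 in pairs 1 to 3. This matters for the endothelial genes, since 35 of the 39 belong to the bright class and the other 4 to the middle class. CKO lung 1 had a log2 level of 10.95 for Xist and 3.78 for the Y-linked Eif2s3y, against 6.07 to 7.70 and 7.06 to 9.04 elsewhere, so the lungs of pair 1 also differed in these sex-linked genes. Pair 2 had neither feature, and values are given for each pair. Precision is limited by having 3 arrays per genotype. Nothing further is given on how the embryos were bred, and p-values measure only the spread between these samples.

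Most endothelial genes lay lower in the CKO lungs, though none passed the test across all probe sets. The median difference over the 39 genes was -0.76, against -0.095 over all 18193 genes and -0.48 over the bright class. It was -0.57, -0.38 and -1.35 in pairs 1 to 3, an SD of 0.51 over pairs. The summed intensity of the 39 genes was 54287 to 67721 in wild type and 21411 to 50652 in Smad1 CKO lungs. The low end was CKO lung 3, and without it the Smad1 CKO sums were 46460 to 50652. In pair 2, where the median of bright genes was -0.03, 34 of the 39 genes were lower, and in pairs 1 and 3 it was 37 and 38. Below the bright class's own median in the same pair were 31, 34 and 26 of the 39 in pairs 1 to 3. Against that class, pair 3 thus had the fewest. In a whole lobe, fewer endothelial cells and less RNA per cell cannot be told apart.

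Lower values in all 3 pairs were found for 32 of the 39 genes (82.1%), where 29.3% of all genes and 50.9% of the bright class were lower in all 3. None was higher in all 3 pairs, where 21% of all genes and 2.18% of the bright class were. Leaving pair 3 aside, 32 were lower in both remaining pairs, against 34.2% of all genes and 52.7% of the bright class. In 15 of the 39 (38.5%) every CKO array lay below every wild type array, against 6.05% of all genes and 11.2% of the bright class.

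With limma's moderated test, paired and adjusted by Benjamini-Hochberg over 45037 probe sets, 0 of the 39 genes passed (lowest adjusted p = 0.367). Across the whole array 0.00222% of probe sets were called lower and 0% higher. At an unadjusted p under 0.05, 23 of the 39 (59%) were lower and 0 higher, against 9.96% and 4.96% of all genes and 15.6% and 0.907% of the bright class. Without pair 3 it was 19 (48.7%), against 6.19% of all genes and 446 of the 6064 genes of the bright class. The unpaired fit gave 10 and cyclic loess normalization between arrays 11, counts given without a share of all genes beside them. After that normalization, which pulls the arrays' bright and dim genes to common levels, the median of the 39 was -0.25. It was 0.049 over all genes and 0.014 over the bright class. Lower in the mean were 30 of the 39, against 7785 of 18193 genes and 2895 of the 6064 bright ones.

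**Figure D1:**
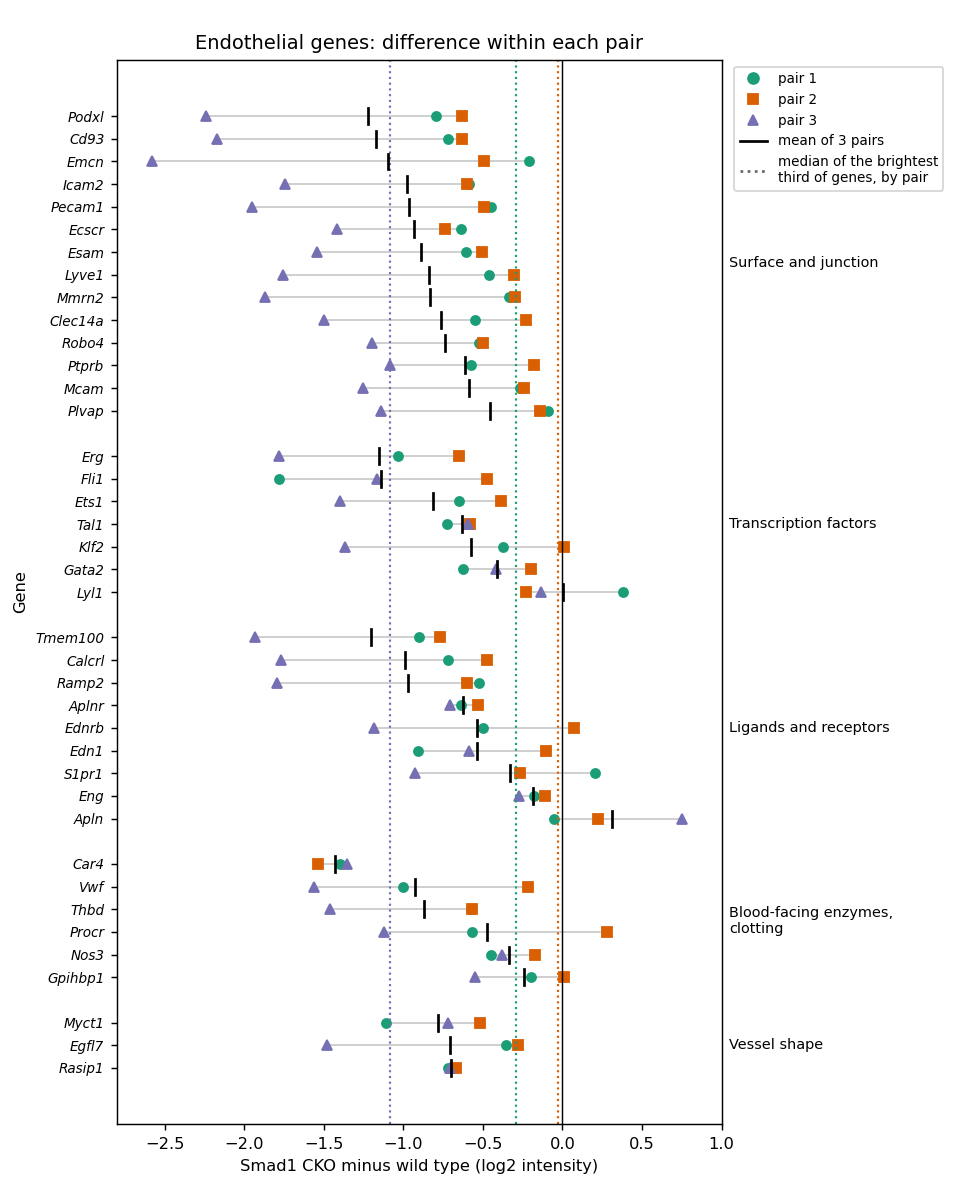
Difference of each of the 39 endothelial genes within each pair, Smad1 CKO minus wild type in log2 intensity, ordered by role; points are pairs, black bars the mean of 3 pairs, and dotted lines the median of the bright class of genes in each pair (-0.29, -0.03 and -1.09). Most points lie left of 0 in every pair, pair 3 is the lowest for 29 of the 39 genes, and Car4 and Rasip1 are among the few with nearly equal values in all pairs.

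The capillary genes went apart from each other. Car4, a carbonic anhydrase anchored on the capillary surface that speeds the exchange of carbon dioxide, had levels of 9.07, 9.37 and 8.46 in wild type lungs 1, 2 and 3, while the CKO lungs, in the same order, had 7.67, 7.83 and 7.11. Every CKO lung lay below every wild type lung. Its difference of -1.43 ± 0.094 (SD, 3 pairs; 95% interval -1.88 to -0.98), a 2.70-fold lower intensity, was the most negative mean difference of the 39 genes (limma, adjusted p = 0.367). The pairs gave -1.40, -1.54 and -1.35, and its other probe set gave -1.80. Without pair 3 the difference was -1.47 (limma, adjusted p = 0.0838) and after cyclic loess normalization -1.05. The unpaired fit that leaves out CKO lung 3 alone gave -1.22 (limma, adjusted p = 0.917). With arrays set to a common upper quartile it was -1.16 and passed across all probe sets (limma, adjusted p = 0.00841). That setting moved the median of all genes from -0.09 to 0.18 and called 340 probe sets lower and 2013 higher, against 1 and 0.

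Tmem100, a small membrane protein of arterial and capillary endothelium that is induced by BMP signals through the receptor Acvrl1, was at 9.50, 9.74 and 8.84 in wild type and at 8.59, 8.97 and 6.91 in CKO lungs. It was lower in every pair, by more in pair 3, while wild type lung 3 lay below CKO lung 2. The difference was -1.20 ± 0.63 (95% interval -1.89 to -0.51), with -0.84 when pair 3 was left out, -0.58 when CKO lung 3 alone was (unpaired; limma, adjusted p = 0.917) and -0.77 after cyclic loess. Its dimmer probe set gave nearly equal values in the 3 pairs, -0.91, -0.91 and -0.79. With a common upper quartile the difference was -0.93 and passed (limma, adjusted p = 0.0448).

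Ednrb, the endothelin receptor type B and a marker of aerocytes, did not follow Car4. It was at 11.11, 11.10 and 10.71 in wild type and at 10.61, 11.18 and 9.53 in CKO lungs, and the groups overlapped. The pair values of -0.50, 0.075 and -1.18 differ in sign, and their mean was -0.53 ± 0.63 (95% interval -1.22 to 0.15). Without pair 3 it was -0.21, and after cyclic loess normalization 0.038. Its other 2 probe sets were also higher in pair 2, at 0.28 and 0.29, and lower in pairs 1 and 3.

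Apln, the secreted peptide apelin made by sprouting endothelium and aerocytes, was the gene with the highest difference of the 39. Its levels were 9.09, 8.72 and 9.39 in wild type and 9.04, 8.95 and 10.14 in CKO lungs, and CKO lung 3, where most bright genes were low, had the highest value. The pairs gave -0.052, 0.23 and 0.75, with a mean of 0.31 ± 0.41 (95% interval -0.25 to 0.87) 0.087 without pair 3 and 0.78 after cyclic loess. With the unpaired fit that leaves out CKO lung 3 alone it was -0.073. Apln is the X-linked gene among the 39, and pair 1 is the pair that differed in Xist.

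Its receptor Aplnr, a G protein-coupled receptor of general capillary and venous cells, was lower in every pair by a similar amount. It was at 12.45, 12.69 and 12.15 in wild type and at 11.81, 12.16 and 11.44 in CKO lungs, which gave -0.64, -0.53 and -0.71 and a mean of -0.62 ± 0.089 (95% interval -1.07 to -0.17). CKO lung 2 lay just above wild type lung 3, so the groups overlapped by that value. The difference was -0.58 without pair 3, while cyclic loess normalization brought it to 0.023. Gpihbp1, which holds lipoprotein lipase on the capillary wall, was at 9.48, 9.85 and 9.78 in wild type and 9.28, 9.86 and 9.23 in CKO lungs. Its difference of -0.24 ± 0.28 (95% interval -0.75 to 0.26) was within the spread between pairs, with -0.091 without pair 3, and it turned to 0.26 after cyclic loess normalization.

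**Figure D2:**
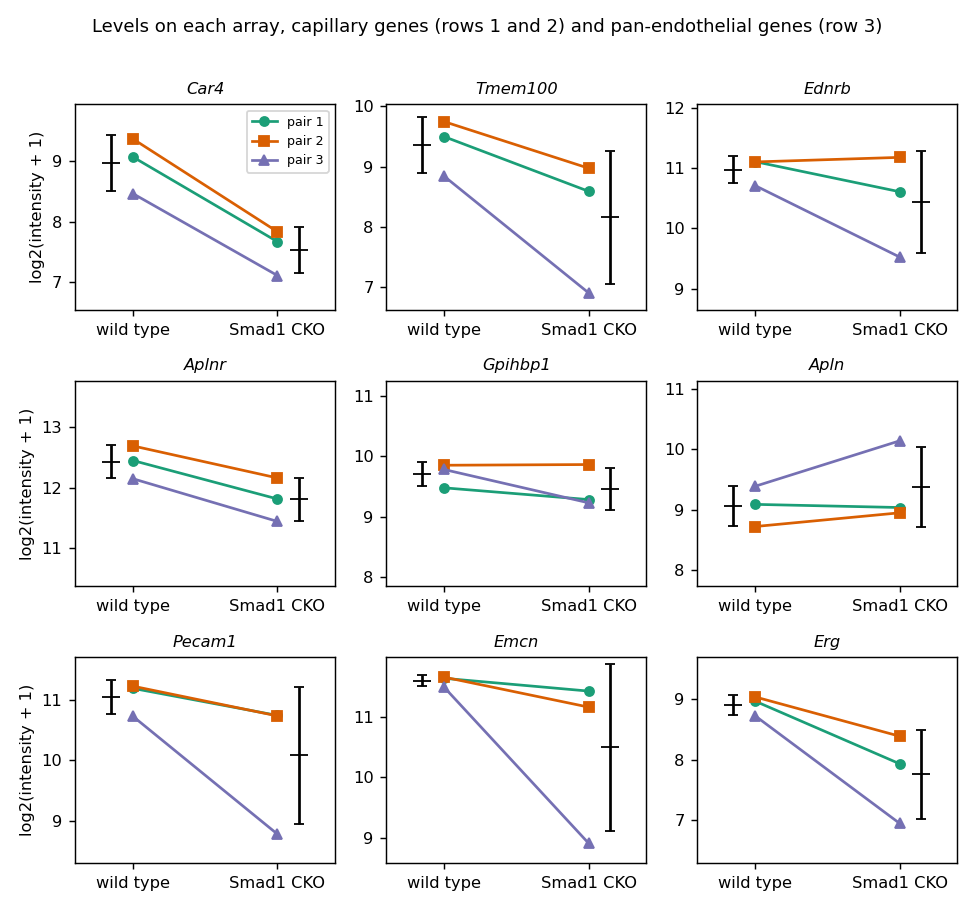
Levels, log2(intensity + 1), of 6 capillary and 3 pan-endothelial genes on each array; lines join the wild type and Smad1 CKO lung of a pair, and black marks give the group mean and SD (n = 3). All panels span the same width on the log2 axis, around different centres. Car4 is lower by a similar step in each pair, Ednrb and Gpihbp1 are level in pair 2, Apln is highest in CKO lung 3, and in Pecam1, Emcn and Erg the line of pair 3 is the steepest.

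Set against the 30 pan-endothelial genes, the 6 capillary genes were not lower as a group. Their median difference was -0.58, with -0.57, -0.26 and -0.94 in the pairs, against -0.77 and -0.57, -0.47 and -1.38 for the pan-endothelial genes. The gap between these medians was 0.19 in the mean differences, and 0.0077, 0.21 and 0.44 within the pairs (SD 0.22), so it was no larger than its spread. Its size moved with the processing. The gap was 0.30 after cyclic loess and 0.33 after quantile normalization. With the mean of all probe sets of a gene it was 0.0026, and 0.024 in the unpaired fit without CKO lung 3. Car4 lay below the pan-endothelial median in pairs 1 and 2 (-0.83 and -1.06) and level with it in pair 3 (0.029). Tmem100 lay below it in every pair (-0.33, -0.30 and -0.55). Ednrb (0.077, 0.55 and 0.20), Gpihbp1 (0.38, 0.49 and 0.83) and Apln (0.52, 0.70 and 2.14) lay above it in every pair. Aplnr was close to it in pairs 1 and 2 and above it in pair 3 (-0.061, -0.056 and 0.68). These genes were picked for their names with earlier results of the same arrays known, so the order is a description.

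Promoter sequences are shown for 3 capillary genes whose differences went apart, Car4, Ednrb and Apln, and for the pan-endothelial Robo4. RefSeq windows (build GRCm38.p6) of 250 bases before to 50 bases after the start were at hand for 19 of the 39 genes, in 25 windows. Capitals mark the letters CCGGAA or CAGGAA on either strand, a core with flank that ETS family factors are known to bind. The window of Car4 is chr11:84957504-84957803 (plus strand), that of Ednrb chr14:103843652-103843951 (minus strand), that of Apln chrX:48034804-48035103 (minus strand) and that of Robo4 chr9:37401722-37402021 (plus strand), each written 5′ to 3′ along its gene.
Car4: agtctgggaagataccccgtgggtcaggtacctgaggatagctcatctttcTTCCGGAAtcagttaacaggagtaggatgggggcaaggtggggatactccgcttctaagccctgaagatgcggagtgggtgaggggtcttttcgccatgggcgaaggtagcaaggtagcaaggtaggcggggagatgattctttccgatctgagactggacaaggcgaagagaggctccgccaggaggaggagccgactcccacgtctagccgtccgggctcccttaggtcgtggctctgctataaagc
Ednrb: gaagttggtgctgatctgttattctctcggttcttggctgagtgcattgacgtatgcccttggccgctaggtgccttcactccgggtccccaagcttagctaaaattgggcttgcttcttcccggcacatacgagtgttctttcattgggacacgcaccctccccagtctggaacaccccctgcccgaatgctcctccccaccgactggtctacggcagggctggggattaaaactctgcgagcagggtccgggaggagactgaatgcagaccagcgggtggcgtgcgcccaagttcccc
Apln: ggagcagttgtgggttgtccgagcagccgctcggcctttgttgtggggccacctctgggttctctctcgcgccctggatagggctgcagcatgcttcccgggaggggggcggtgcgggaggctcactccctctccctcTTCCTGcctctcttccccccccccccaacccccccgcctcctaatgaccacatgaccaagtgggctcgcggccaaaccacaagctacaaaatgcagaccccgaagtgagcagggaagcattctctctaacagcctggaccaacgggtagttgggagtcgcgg
Robo4: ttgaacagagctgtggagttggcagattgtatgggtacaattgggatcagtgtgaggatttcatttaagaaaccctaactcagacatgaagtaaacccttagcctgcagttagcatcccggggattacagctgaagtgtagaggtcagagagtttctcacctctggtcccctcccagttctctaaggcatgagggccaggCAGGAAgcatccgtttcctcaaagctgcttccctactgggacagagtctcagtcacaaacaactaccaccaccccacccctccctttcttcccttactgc

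In these windows Car4 holds CCGGAA on both strands, as a pair of matches that overlap, Apln and Robo4 each hold CAGGAA once, and Ednrb holds neither. CAGGAA was found in 12 of the 25 windows (48%), of 11 genes, against 30.6% of all 32851 windows of this length, and CCGGAA in 2 (8%), those of Car4 and Lyl1, against 14.9%. The letters TGATAA of GATA factors were in 2 windows (8%, against 9.05% of all), those of Emcn and Egfl7. CAGCTG, an E-box of the kind Tal1 binds, was in 4 (16%, against 16.3%), and GGCGCC, a core of BMP response elements, in 2 (8%, against 11.9%). Apart from the pair in Car4, overlaps between different motifs were not counted apart. Apln, the gene with the highest difference, and Robo4, which was lower in every pair, both hold the CAGGAA letters.

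All 14 surface and junction genes were lower in all 3 pairs, 10 of them at an unadjusted p under 0.05 (none after adjustment). Their median difference was -0.86 (-0.54, -0.49 and -1.65 in the pairs). Without pair 3 the median was -0.43, with 6 of the 14 at an unadjusted p under 0.05, and after cyclic loess it was -0.37. Pecam1, the adhesion molecule CD31 of endothelial junctions, was at 11.19, 11.22 and 10.73 in wild type and at 10.74, 10.73 and 8.78 in CKO lungs. CKO lungs 1 and 2 lay level with wild type lung 3, and CKO lung 3 far below. The difference was -0.96 ± 0.85 (95% interval -1.80 to -0.12), and -0.47 without pair 3.

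Emcn, the sialomucin endomucin of capillary and venous endothelium, was at 11.63, 11.65 and 11.49 in wild type and at 11.42, 11.16 and 8.91 in CKO lungs, with no overlap. Its difference of -1.10 ± 1.29 (95% interval -2.27 to 0.073) had the widest spread over pairs of the 39 genes, since pair 3 gave -2.58 and pairs 1 and 2 gave -0.21 and -0.50. Without pair 3 it was -0.35.

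Ecscr, an endothelial surface protein that modulates VEGF receptor signalling, had the smallest unadjusted p of this group. It was at 9.78, 10.04 and 9.49 in wild type and at 9.14, 9.30 and 8.07 in CKO lungs, again with no overlap, and its difference was -0.93 ± 0.42 (95% interval -1.50 to -0.36) and -0.69 without pair 3. Plvap, which forms the diaphragms of endothelial fenestrae and caveolae, had the difference nearest 0 in this group. Its levels of 10.61, 10.62 and 10.37 in wild type and 10.52, 10.48 and 9.23 in CKO lungs gave -0.46 ± 0.59 (95% interval -1.12 to 0.21), nearly all of it from pair 3, with -0.12 without that pair and 0.093 after cyclic loess normalization.

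The other surface genes ranged from -1.22 to -0.59. Podxl, a sialomucin that opens vessel lumens, was at -1.22 ± 0.88 with no overlap between groups. It passed with a common upper quartile (-0.95, limma, adjusted p = 0.0397) but was at -0.71 without pair 3 (limma, adjusted p = 0.52), -0.59 without CKO lung 3 alone and -0.67 after cyclic loess, and its other probe set gave -0.53. Cd93, a C-type lectin-like receptor, was at -1.17 ± 0.86 and -0.68 without pair 3, while 1 of its 4 dimmer probe sets gave 0.85. Its partner in the matrix, Mmrn2, was at -0.84 ± 0.90, with 1 of its 3 other probe sets at 0.06, and Clec14a, another lectin of the same family, at -0.76 ± 0.66. Without pair 3 Mmrn2 was at -0.32 and Clec14a at -0.39. The junction and adhesion molecules Icam2, Esam and Mcam were at -0.98 ± 0.67, -0.89 ± 0.57 and -0.59 ± 0.58, with no overlap in any of them. They were at -0.59, -0.56 and -0.25 without pair 3, and at -0.42, -0.29 and -0.04 after cyclic loess. Robo4, a guidance receptor that stabilises vessels, was at -0.74 ± 0.40, and Ptprb, the phosphatase VE-PTP that restrains Tie2, at -0.61 ± 0.45, with -0.51 and -0.37 without pair 3. Lyve1, the hyaluronan receptor of lymphatic endothelium that fetal lung macrophages and some blood vessels also carry, was at -0.84 ± 0.80, and -0.38 without pair 3.

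Among the 7 transcription factors, 5 were lower in all 3 pairs. Erg, which keeps endothelial junction genes on, was at 8.97, 9.04 and 8.72 in wild type and at 7.93, 8.39 and 6.95 in CKO lungs, so all CKO lungs lay below all wild type lungs. Its difference was -1.16 ± 0.57 (95% interval -1.81 to -0.50), a 2.23-fold lower intensity, and -0.84 without pair 3. A dimmer probe set of Erg gave -0.075, -0.44 and 0.52, so its probe sets disagree.

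Fli1, another ETS factor of endothelium and blood, was at -1.14 ± 0.65, with its lowest value in pair 1 (-1.78), and Ets1 was at -0.81 ± 0.53. Without pair 3 they were at -1.13 and -0.52, and after cyclic loess at -0.74 and -0.18. Both were lower in every pair on each of their probe sets, and their groups did not overlap. Tal1, a helix-loop-helix factor of blood and endothelial cells, gave nearly equal values in the pairs, -0.72, -0.58 and -0.59, and lay below Ets1 without pair 3 (-0.65) and after cyclic loess (-0.43). Gata2, its zinc finger partner, was at -0.41 ± 0.21, and the flow-induced Klf2 at -0.58 ± 0.71, with 0.01 in pair 2 and -0.18 without pair 3.

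Lyl1, the close relative of Tal1 in blood and endothelial cells, was the exception. It was at 7.17, 7.46 and 6.998 in wild type and at 7.55, 7.23 and 6.86 in CKO lungs, with the highest value in CKO lung 1 and the groups mixed. The mean difference was 0.0049 ± 0.33 (95% interval -0.52 to 0.53), and without pair 1 it was -0.18.

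Of the 9 ligands, receptors and partners, 6 were lower in all 3 pairs, with a median difference of -0.53. This group turned with the normalization, since its median after cyclic loess was 0.023 and 4 of the 9 were then lower. Calcrl and Ramp2, which together form the adrenomedullin receptor of endothelium, gave similar values: Calcrl was at -0.99 ± 0.69 with -0.72, -0.48 and -1.77 in the pairs, and Ramp2 at -0.97 ± 0.71 with -0.53, -0.60 and -1.80. Without pair 3 they were at -0.60 and -0.56, and the other probe sets of Calcrl reached from -0.98 to -0.0034. Eng, the co-receptor endoglin that binds BMP ligands on endothelium, was at -0.19 ± 0.084 on its brighter probe set. The dimmer one gave -0.84, lower in every pair (-0.73, -0.45 and -1.34), so the size of the Eng difference depends on the probe set. S1pr1, the sphingosine 1-phosphate receptor that seals junctions, was at -0.33 ± 0.57, with 0.21, -0.27 and -0.93 in the pairs and -0.03 without pair 3. Edn1, the peptide endothelin that Ednrb binds, was at -0.53 ± 0.41, lower in every pair but by -0.10 in pair 2.

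Genes that face the blood differed widely around Car4. Thbd, thrombomodulin, which turns thrombin into an anticoagulant enzyme, was at -0.87 ± 0.52, with no overlap and -0.57 without pair 3. Vwf, the clotting protein of larger vessels and platelets, was at -0.93 ± 0.68, with -1.004, -0.22 and -1.56 in the pairs and -0.61 without the last of them. Nos3, the endothelial nitric oxide synthase, was at -0.33 ± 0.15. Procr, the protein C receptor of larger vessels, had mixed signs (-0.57, 0.28 and -1.12), with -0.14 without pair 3, and in CKO lung 3 its level of 5.91 lay below that array's median.

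The 3 genes of vessel shape were lower in every pair. Rasip1, which endothelial cells need to open a lumen, was at 9.46, 9.39 and 8.80 in wild type and at 8.73, 8.72 and 8.09 in CKO lungs, with no overlap. Its difference of -0.70 ± 0.028 (95% interval -1.14 to -0.25) had the narrowest spread over pairs of all 39 genes. Myct1, a membrane protein of endothelium, was at -0.78 ± 0.30, and Egfl7, a secreted protein that guides vessel assembly, at -0.71 ± 0.67, with -0.32 without pair 3. The 6 genes with an SD over pairs under 0.15 were Rasip1, Tal1, Eng, Aplnr, Car4 and Nos3, and of these Car4 had the largest difference.

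**Figure D3:**
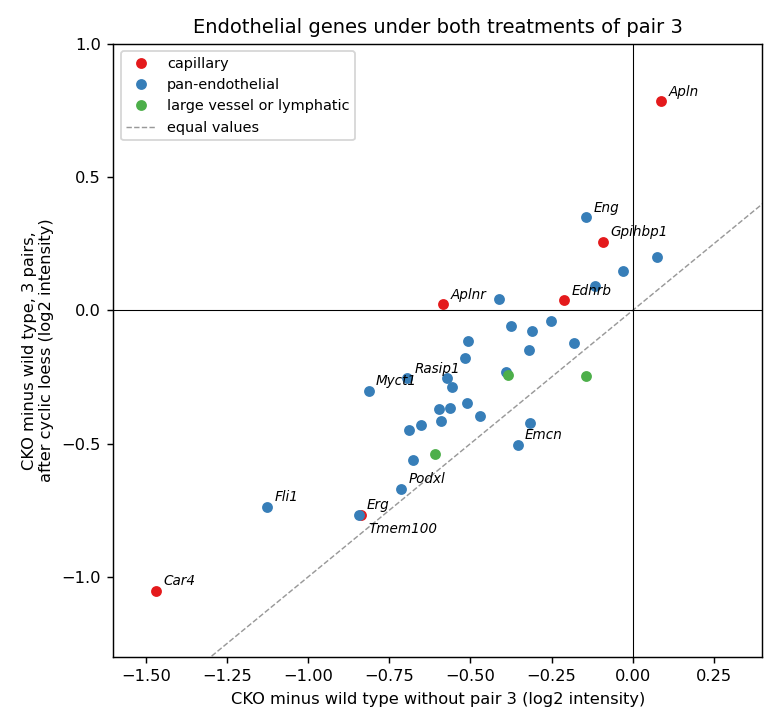
Difference of each of the 39 genes without pair 3 (horizontal axis) against its difference over 3 pairs after cyclic loess normalization (vertical axis), Smad1 CKO minus wild type in log2 intensity, coloured by sublist; the dashed line marks equal values. Car4 (-1.47 and -1.05), Fli1, Tmem100, Erg and Podxl lie far below 0 on both axes, while Eng, Gpihbp1, Ednrb and Aplnr lie left of 0 and just above it.

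Other endothelial genes, none of them among the 39, were read in the same way from a list of 57 names, 52 of them measured. The defining markers Cdh5, Cldn5, Kdr, Tek and Tie1 had levels between 9.28 and 11.91 in wild type lungs, well above the array medians of 6.15 to 6.30. Of the 52, 41 were lower in all 3 pairs, beside 29.3% of all genes and 50.9% of the bright class. Higher in all 3 was 1, beside 21% and 2.18%. At an unadjusted p under 0.05, 38 were lower, against 9.96% of all genes and 15.6% of the bright class, with 0 past the adjusted threshold. The median of the 52 was -0.83 (-0.68, -0.51 and -1.18 in the pairs), -0.58 without pair 3 and -0.30 after cyclic loess.

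The smallest unadjusted p in that list belonged to Kit, a receptor kinase of general capillary cells and also of mast cells, at -1.39 ± 0.31. Rgcc, a cell cycle regulator of endothelium, followed at -1.12 ± 0.31, then Lmo2, which bridges Tal1 and Gata factors, at -1.298 ± 0.53, and the homeobox factor Hhex at -0.98 ± 0.22. In pair 2 alone they were at -1.16, -0.92, -1.01 and -0.90. Genes with a mean difference above 0 were Gja5, the connexin of arterial endothelium (0.13), the adhesion receptor Selp (0.12) and Exoc3l2 (0.041). The 6 lymphatic genes measured had a median of -0.31, with 2 lower in all 3 pairs, Itga9 (-1.38 ± 0.80) and Pdpn (-0.78 ± 0.74). Pdpn is also counted among the alveolar type 1 genes below, so its value is not particular to lymphatic cells. Prox1, the factor that defines lymphatic cells, was at 0.27 ± 0.62.

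Several of the 39 genes are also active in blood cells, and the lobe holds blood. The 12 known for this (Tal1, Lyl1, Gata2, Fli1, Ets1, Icam2, Cd93, Klf2, Pecam1, Thbd, Vwf and Lyve1) had a median of -0.86. Red cell genes, 13 measured of 19 listed, had a median of 0.17 with 5 lower and 3 higher in all pairs, and their summed intensity was 2891 to 3638 in wild type and 1600 to 2695 in Smad1 CKO lungs, so the median and the sum differ in direction. Platelet genes, 9 of 11, had a median of 0.095 (sums of 1205 to 1541 in wild type and 1011 to 1302 in Smad1 CKO lungs), again with a higher median and lower sums. Leukocyte genes, 22 of 23, had a median of -0.13 with -0.10, 0.14 and -0.55 in the pairs, and sums of 27479 to 40104 in wild type and 9669 to 26339 in Smad1 CKO lungs. Without CKO lung 3 the Smad1 CKO sums were 2640 to 2695 for red cell genes and 22996 to 26339 for leukocyte genes. The part of blood cells in the endothelial values was not tested.

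Markers of neighbouring cells are set beside the bright class, whose pair medians were -0.29, -0.03 and -1.09 and of which 50.9% was lower in all 3 pairs. The 16 alveolar type 1 genes, of the flat cells that share a basement membrane with the capillaries, had a median of -0.74 (-0.43, -0.33 and -1.42 in the pairs), with 14 lower in all pairs and sums of 60657 to 65880 in wild type and 18025 to 50855 in Smad1 CKO lungs. Their smallest unadjusted p belonged to Aqp5, at -3.05 ± 0.17, a larger drop than that of any of the 39 genes. Rtkn2 (-1.45 ± 0.16) and Scnn1g (-1.10 ± 0.20) followed, and Igfbp2 was higher in the mean (0.24 ± 0.30). The 11 pericyte genes measured of 13 had -0.41, -0.072 and -0.80 in the pairs, with 6 lower in all pairs and sums of 9172 to 11130 in wild type and 3960 to 10694 in Smad1 CKO lungs. The 17 mesenchymal genes of 18 had -0.23, -0.0074 and -1.74, and sums of 78597 to 95360 in wild type and 20387 to 86800 in Smad1 CKO lungs. In these 3 lists the low end was CKO lung 3. Without it the Smad1 CKO sums were 49804 to 50855 for alveolar type 1, 8796 to 10694 for pericyte and 82649 to 86800 for mesenchymal genes. The 10 smooth muscle genes had -0.11, 0.14 and -0.75, and the 22 general epithelial genes 0.032, 0.21 and -0.997. In pair 2 the endothelial median of -0.38 thus stood beside medians between -0.07 and 0.21 for pericyte, mesenchymal, smooth muscle, leukocyte and general epithelial genes. For leukocyte genes the sum went the other way in pair 2, with 40104 in wild type and 26339 in CKO lung 2. The sum of the 39 endothelial genes was 67721 and 50652 there. Sums of general epithelial and smooth muscle genes were higher in CKO lung 2. In the same pair alveolar type 1 genes were at -0.33, lymphatic genes at -0.32, platelet genes at -0.20 and red cell genes at -0.04. The part of cell numbers in these differences was not tested.

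**Figure D4:**
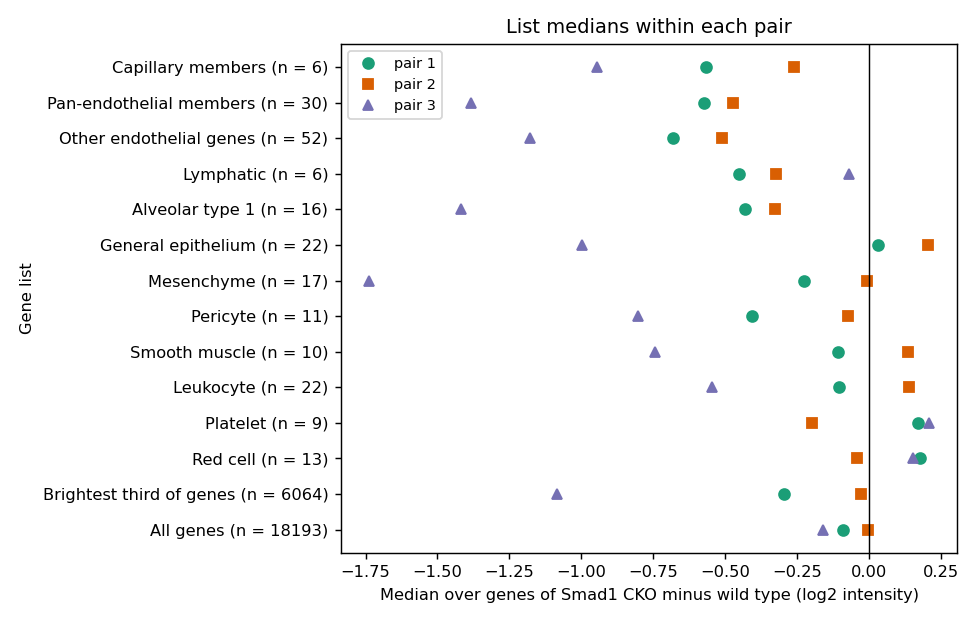
Median difference of each gene list within each pair, Smad1 CKO minus wild type in log2 intensity, with the number of genes measured; points are pairs. The endothelial lists lie left of 0 in pairs 1 and 2, at -0.26 to -0.68, as alveolar type 1 and lymphatic genes do. General epithelium, smooth muscle and leukocyte genes lie near 0 or above it in pair 2, where platelet genes are at -0.20. Pair 3 is far left for most lists.

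Signals from outside the endothelium that act on it were read from a list of 11 genes, of which 4 were lower in all 3 pairs and 0 higher, beside 29.3% of all genes and 50.9% of the bright class lower in all 3. The median of the list was -0.22, and after cyclic loess 0.29, with 2 of the 11 then lower. The smallest unadjusted p belonged to Bmp6, a BMP ligand, at -0.57 ± 0.17, and to Sema3a, a repellent guidance ligand, at -0.75 ± 0.57. Vegfa, the growth factor that endothelium depends on and that alveolar type 1 cells make, was at -0.58 ± 0.46 with -0.49, -0.17 and -1.07 in the pairs, and at 0.0089 after cyclic loess normalization. Genes with a mean difference above 0 were Fgf10, a mesenchymal growth factor (0.42 ± 0.50), Gdf2, the circulating BMP ligand of Acvrl1 and Eng (0.21 ± 0.21), and Adm, the ligand of Calcrl and Ramp2 (0.17 ± 0.89, with 0.70, 0.66 and -0.86 in the pairs). None passed after adjustment.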

How the data were processed

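RNA of 6 left lung lobes was read on 1 array each. The deposited values are linear intensities per probe set. RMA is named in the submitters' processing notes, and no version or setting of it was stated in the sources used here. As deposited, the arrays did not share a common distribution. The upper quartile was 170.3 for CKO lung 3 and 222.3 to 283.8 on the other arrays. The main fit added no normalization between arrays, and with quantile normalization the median of the 39 genes was -0.34, against -0.76. The deposited values were taken to log2(intensity + 1), so the fold of a dim gene is slightly understated. Probe sets carry the gene symbols of the platform annotation: 34945 had 1 symbol, 932 several and 9160 none, and 64 control probe sets were left out.

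A two-sided moderated test with pair as a block (limma 3.58.1, R 4.3.3) was run on 45037 probe sets, with Benjamini-Hochberg adjustment at 0.05. The fit leaves 2 residual degrees of freedom, and an exact permutation test could not go below 0.1 unpaired or 0.25 within pairs. Pairs come from the design and the array names. Deviations from the group means correlated within pairs at 0.258, 0.604 and 0.598, and between pairs at 0.215 or less. The fits were tested on simulated data.

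Values on every array are given for Car4, Ednrb, Tmem100, Pecam1, Emcn and Erg, for the gene of each role with the smallest unadjusted p or the highest difference, and for any higher in the mean. Aplnr is shown likewise as the remaining capillary gene, chosen after its values were seen. From other lists up to 4 genes with the smallest unadjusted p are named, with genes opposite to the list's median; the endothelial markers Cdh5, Cldn5, Kdr, Tek and Tie1 serve as a check of the tissue. The genes and lists were chosen with earlier results of these data known. Alternatives covered the block, normalization, pseudocount (16), dim probe sets, the variance prior, the choice of probe set and left-out pairs.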

Additional observations from a re-analysis of the deposited data

Results flagged for a closer look

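The 18S ribosomal RNA control probe sets, which enter no comparison of genes, had a mean intensity of 2194 on the array of Smad1 CKO lung 3, against 154 to 201 on the other 5 arrays. The upper quartile of that array was 170.3, against 222.3 to 283.8. Without pair 3 the median difference of the 39 endothelial genes was -0.51, against -0.76 with it; the cause was not tested.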

How the results depend on the processing

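Of 546 values of single endothelial genes under 14 alternatives, 526 kept their direction and their side of the threshold, 3 passed it and 17, of 10 genes, turned direction. Changing the block, adding the intensity trend or leaving out dim probe sets cannot move a difference here. None of the 39 genes passed in the paired fit. The 526 thus include values that could not change, and the count does not measure how stable the differences are. The count of probe sets called lower, 1 with pairs as the replicate block, was 0 with no replicate block, 6 with the replicate block as a random effect, 0 after quantile normalization, 2 after cyclic loess, 340 with a common upper quartile, 0 with a pseudocount of 16, 17 without the dimmest class of probe sets and 30 with an intensity trend. The count called higher, 0 in the paired fit, was 2013 with a common upper quartile and 2 with an intensity trend. Leaving out a pair or CKO lung 3 gave 0 to 24 lower and 0 to 4 higher. The 23 endothelial genes lower at an unadjusted p under 0.05 became 10 with no replicate block, 12 after quantile normalization, 11 after cyclic loess, 15 with a common upper quartile, 13 with an intensity trend and 10 to 30 when arrays were left out (10 without CKO lung 3, 13 without pair 1). The 32 lower in all pairs became 18 after cyclic loess. The shares of all genes under these settings are not given, so these counts have no background beside them. The common upper quartile moved the median of all genes from -0.09 to 0.18, and that of the 39 genes to -0.49. After quantile normalization Eng was at 0.31, Plvap at 0.0021, Gpihbp1 at 0.22, Aplnr at 0.026 and S1pr1 at 0.080. After cyclic loess Eng was at 0.35, Ednrb at 0.038, Plvap at 0.093, Gpihbp1 at 0.26, Aplnr at 0.023, S1pr1 at 0.15 and Gata2 at 0.042. With a common upper quartile Eng was at 0.088 and Gpihbp1 at 0.031. The causes were not tested.

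When a pair or CKO lung 3 was left out, Lyl1 ranged from -0.18 to 0.18, Apln ranged from -0.073 to 0.49 and Procr ranged from -0.85 to 0.13. The range of the median of the 39 genes was -0.92 to -0.31. With 3 arrays per genotype, a missing call does not show that a gene did not differ.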
